A study of Drosophila melanogaster with 84 samples.

Results

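Genes that carry only a CG number, the running name that annotators of the *Drosophila* genome give to a predicted gene, were searched for a morning peak in the PDF neurons of the fly brain. The members were chosen by their values in LD. In wells with 1000 to 6000 genes, 6000 to 75000 UMIs (unique molecular identifiers, 1 per captured mRNA molecule) and *Pdf* of at least 150 TP10K (transcripts per 10000 UMIs of the well), the mean TP10K of a gene had to be highest at ZT02 or ZT06, to reach 3, and to be at least 3 times its lowest mean plus 0.1. Of 6516 CG genes 4 were left out by name. Of the other 6512, 156 reached 3 TP10K and 85 also passed the ratio. The highest mean of 18 of these 85 fell in the morning, 9 at ZT02 and 9 at ZT06, and these 18 are described here. The remaining 67 peaked later. The same rule took 52 genes with other names, and the files list 15801 genes in all.

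Adult flies expressed EGFP under *Clk856-GAL4*, a driver that labels most clock neurons of the adult brain and a few cells beyond them, so that every group shares the driver and the reporter. Sorted single neurons were profiled with CEL-Seq2, which reads the 3' end of poly(A) RNA, at 2, 6, 10, 14, 18 and 22 h, written CT on the third day of constant darkness (DD) and ZT in 12:12 light:dark cycles (LD). The 84 libraries (48 in DD, 36 in LD) held 191993 to 4259643 UMIs with a median of 1152988, in 94 to 96 wells each. Libraries of a time point with the same number in their label were taken as a batch, which gave 14 batches in DD and 14 in LD and 2 or 3 per time point. The labels do not say what the number marks, nor whether batches came from separate flies, so that p-values measure the spread between batches. DD and LD share 0 numbers, and light condition and batch cannot be told apart. All 96 barcodes recur in several libraries, since they mark the well of a plate, and 0 kept wells were identical.

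Of 8060 wells 5001 passed the limits, and 429 were PDF wells (189 in DD, 240 in LD). *Pdf* and *sNPF* summed to 374 to 703 TP10K in PDF wells in DD, against 9.03 to 22.5 TP10K in the kept wells of neither kind. *Pdf* set the limit for PDF wells, so this sum follows from their choice and is no separate check. The paper reports *sNPF* in the small but not the large PDF neurons, and PDF wells were not split by it. AstC/VGlut wells had *AstC* of at least 50 and *VGlut* of at least 8 TP10K, genes that mark a group of dorsal clock neurons. There were 464 of them (219 in DD, 245 in LD), and 0 wells were in both kinds. *AstC*, *VGlut*, *gl*, *Dh31* and *CNMa* summed to 221 to 344 TP10K there in DD. *AstC* and *VGlut* set the limits for these wells, so this sum is no separate check either. The levels of *gl*, *Dh31* and *CNMa* were not summed apart from them. The paper also reports *AstC* in the lateral posterior neurons, and AstC/VGlut wells were not split for these. The 6 glial markers found summed to at most 2.33 TP10K at any time point in PDF wells in DD and to at most 6.02 TP10K in LD.

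PDF neurons, the lateral neurons that release the neuropeptide PDF, couple the clock network and drive the morning bout of activity. In the molecular clock CLK and CYC activate *per* and *tim* in the evening, whose products then repress CLK and CYC. A second loop through *vri* and *Pdp1* sets transcripts such as *Clk* and *cry* to the opposite phase, so that they are high around dawn. In PDF wells in DD the fits of *cry* and *Clk* were highest at 1.83 and 2.03 h (edgeR adjusted p = 0.0235 and 0.0829) and that of *tim* at 15.6 h (adjusted p = 0.0235). The same test gave an adjusted p of 0.119 for *Pdp1*, 0.134 for *vri*, 0.555 for *cwo*, 0.870 for *per* and 0.928 for *cyc*, so it also missed known clock genes.

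The label "uncharacterised" holds for part of the list. RefSeq (Release 6) now names 6 of the 18, and all 18 code for protein. *CG43729* is *Stacl*, the fly relative of the vertebrate Stac proteins that bind L-type calcium channels. *CG11221* is *meng*, a kinase known in fly memory. *CG10960* is *nebu*, of the sugar transporter family, and *CG14299* is *Epg5*, which takes part in the fusion of autophagosomes with lysosomes. *CG7337* is *Wdr62*, a scaffold of centrosome and spindle, and *CG6123* is *kairos*. Of those without a name, *CG34384* belongs to the diacylglycerol kinases and *CG42260* to the cyclic nucleotide-gated channels. No role is given for the other 10. The members lie on X (4), 2L (3), 2R (4), 3L (3) and 3R (4). The closest pair is *CG14301* and *CG14299* on 3R, with 108978 bases and 27 genes between them.

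In LD, where they were selected, *CG43902* had the highest mean in PDF wells, 52.8 TP10K at ZT06 against 5.48 TP10K at its lowest time, ZT14. *CG43729* reached 28.5 TP10K, *CG34384* 18.5 TP10K, *CG12541* 14.2 TP10K, *CG10960* 9.55 TP10K, *CG42260* 6.95 TP10K, *CG14408* 6.93 TP10K and *CG10252* 5.54 TP10K. The other 10 peaked between 3.31 and 5.0 TP10K. Just inside the limit on level were *CG13300* (3.31 TP10K) and *CG14989* (3.33 TP10K), and just outside were *CG2694* (2.59 TP10K) and *CG18265* (2.56 TP10K). Just inside the ratio were *CG6123* (3.15) and *CG42750* (3.20), and just outside were *CG10555* (2.998) and *CG17816* (2.75). The number of PDF wells per LD batch ran from 1 to 55, and a mean over wells is led by the large batches. A 24 h curve fitted to the 13 LD batches with at least 3 PDF wells, as a description of the values that chose the genes, peaked between 0 and 8 h for 12 of the 17 members that could be fitted. The fit peaked at 14.2 h for *CG13300*, 13.9 h for *CG14299*, 19.2 h for *CG14301*, 15.1 h for *CG14408* and 23.8 h for *CG7337*.

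The PDF wells in DD, none of which had been used to choose the genes, tested whether the morning peak recurs. UMIs were summed per batch, and a cosine and a sine of 24 h were fitted in edgeR and tested by quasi-likelihood, and p was adjusted by Benjamini-Hochberg over all 4854 genes tested. Each p of a rhythm tests both terms together, whereas the difference between 4 and 16 h and its SE refer to 1 phase. A gene was called with a morning peak at an adjusted p under 0.05 and a fitted peak from 0 up to 8 h. *CG43902*, *CG43729* and *CG11221* were called, 3 of the 17 members tested, against 0.577% of all genes tested (28 of 4854). At an unadjusted p under 0.05 and a fitted peak in the same hours there were 6 members, against 6.18% of all genes tested. *CG10252* had 14 UMIs in these batches and did not pass the filter on low counts. The fit at 4 h minus the fit at 16 h was positive for 16 of 17 members, with a median of 0.74 on the log2 scale against 0.07 over all genes tested. Of the 52 genes with other names under the same rule 8 were called, and of the 67 CG genes that peaked later in LD 2 were. Both lists met the same limits on level and ratio as the members. All genes tested did not have to, so they are not a like reference for the shares given here and below.

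*CG43902*, on X from 10158434 to 10195337, had 41.9 and 35.9 TP10K at CT02, 37.9 and 40.1 TP10K at CT06, 16.9, 3.60 and 27.2 TP10K at CT10, 3.04 and 6.46 TP10K at CT14, 8.75 and 4.39 TP10K at CT18 and 25.9 and 19.3 TP10K at CT22. The 4 batches of CT02 and CT06 lay above the 9 others. Its difference between 4 and 16 h was 3.32 ± 0.58 (log2, SE, n = 13 batches), with a fitted peak at 3.42 h (edgeR adjusted p = 0.0235). With 1 batch left out at a time the difference stayed between 3.04 and 3.51 and the call held in 9 of 13 cases. Without CT06 batch 3, CT14 batch 1, CT14 batch 2 or CT18 batch 2 the adjusted p was 0.0512, 0.0531, 0.0510 and 0.0636. The antisense gene *CR44894* spans the whole of *CG43902* and has a row of its own, with a median of 1.34 TP10K (0.179 to 10.6) in the same batches.

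*CG43729* (*Stacl*), on 2R from 15401096 to 15471884, had 22.6 and 22.7 TP10K at CT02, 29.3 and 21.0 TP10K at CT06, 19.2, 12.8 and 14.1 TP10K at CT10, 10.2 and 6.01 TP10K at CT14, 6.17 and 4.82 TP10K at CT18 and 15.4 and 10.9 TP10K at CT22. Here too the 4 morning batches lay above the rest, and the 3 lowest batches were both of CT18 and CT14 batch 2. The difference was 2.18 ± 0.33 (log2, SE, n = 13), with a fitted peak at 4.53 h (adjusted p = 0.0187, and 0.0513 without CT18 batch 1). The protein-coding gene *Mtk* and the noncoding gene *CR45020* lie within *CG43729* on the same strand. No level was found for *Mtk* under that name, and that of *CR45020* was not examined. Whether their reads enter the counts of *CG43729* was not tested.

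*CG11221* (*meng*), on 2L from 6742502 to 6756133, had 2.34 and 5.92 TP10K at CT02, 3.87 and 2.92 TP10K at CT06, 1.04, 0.310 and 1.27 TP10K at CT10, 0.263 and 0 TP10K at CT14, 0.430 and 0.245 TP10K at CT18 and 1.19 and 1.34 TP10K at CT22. Its level was a small part of that of *CG43902*, and 488 UMIs stood behind these 13 values. The difference was 4.49 ± 0.63 (log2, SE, n = 13), with a fitted peak at 3.38 h (adjusted p = 0.0100). It kept its call without any single batch, with adjusted p between 0.0078 and 0.0392. The 3 called members were also the 3 of 18 whose batches of CT02 and CT06 all lay above the other batches, a pattern seen in 0.597% of the genes tested (29 of 4854).

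The other members of this group did not pass the test in DD. *CG13594* had 2.42 to 4.43 TP10K in the 4 morning batches and 0.628 to 2.86 TP10K in the 9 others, which overlap (1.76 ± 0.44, adjusted p = 0.155). *CG12541* had 7.36 to 10.6 TP10K in the morning batches and 2.95 to 10.2 TP10K in the others, the highest of which was CT22 batch 1 (1.13 ± 0.37, adjusted p = 0.120). *CG10960*, the sugar transporter *nebu*, had 6.08 and 8.78 TP10K at CT02, 8.08 and 1.30 TP10K at CT06 and 0.993 and 7.53 TP10K at CT22, so that batches of the same time differed as widely as times did (1.79 ± 0.63, adjusted p = 0.344). *CG42260*, of the cyclic nucleotide-gated channels, was highest at CT06, with 5.30 and 5.08 TP10K (1.10 ± 0.45, adjusted p = 0.470). *CG34384*, the diacylglycerol kinase, had 9.17 and 8.16 TP10K at CT02 and 2.40 and 4.0 TP10K at CT06 (0.53 ± 0.54, adjusted p = 0.705). In LD it had 13.6 and 26.8 TP10K at ZT02 and 2.09 and 4.31 TP10K at ZT06, and of its other LD batches ZT22 batch 3 was the highest, with 10.5 TP10K. Measured by the rule of the members itself, 12 of 18 had their highest DD mean at CT02 or CT06 (35.5% of all genes tested did). The whole rule was passed by 6, *CG10960*, *CG11221*, *CG12541*, *CG13594*, *CG43729* and *CG43902*, against 2.29% of genes. Members had to reach 3 TP10K in PDF wells in LD, which 783 genes did. All genes tested are thus not a like reference for the whole rule.

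**Figure D1:**
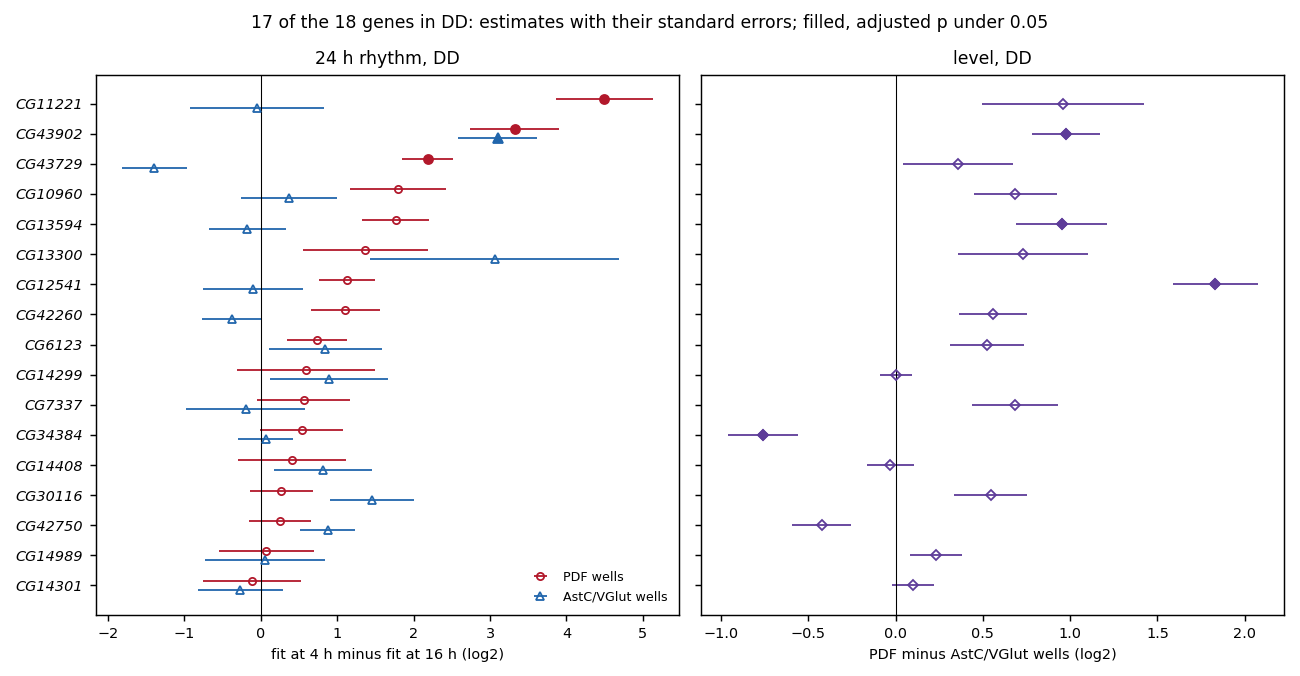
Estimates in DD for the 17 genes that passed the filter, with standard errors over 13 batches. Left, fit at 4 h minus fit at 16 h (log2) in PDF wells (red circles) and AstC/VGlut wells (blue triangles); right, PDF minus AstC/VGlut wells (log2); filled symbols have an adjusted p under 0.05. Only *CG43902* is filled for both kinds of well, and *CG43729* lies at 2.18 in PDF wells and at -1.39 in AstC/VGlut wells.

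The AstC/VGlut wells asked whether the same genes peak in the morning in another class of clock neuron. A single member, *CG43902*, was called, in DD (1 of 17, against 0.375% of 4270 genes) and in LD (1 of 17, against 0.749% of 4539 genes). The LD wells came from the same libraries that chose the members, so the LD values are not independent of that choice. The DD wells came from other libraries. At an unadjusted p under 0.05 and a fitted peak in the same hours the members numbered 3 in DD (5.43% of all genes tested did so) and 3 in LD (4.25%). The median difference of the members was 0.06 in DD and 0.28 in LD (log2), against 0.08 and -0.02 over all genes tested. 8 members had their highest mean at 2 or 6 h in DD (35.2% of genes tested) and 8 in LD (26.1%). *CG12541*, *CG30116* and *CG43902* passed the whole rule in DD (1.48% of genes) and *CG10252*, *CG14301* and *CG43902* did in LD (1.26%). The LD maxima of *CG10252* and *CG14301* came from 1 library and 1 batch, as given below. The shares of all genes in AstC/VGlut wells were not matched to the level of the members.

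*CG43902* in AstC/VGlut wells had 14.1 and 24 TP10K at CT02, 24.7 and 8.63 TP10K at CT06, 4.54, 3.52 and 6.13 TP10K at CT10, 1.56 and 1.86 TP10K at CT14, 6.09 and 2.84 TP10K at CT18 and 17.5 and 22.6 TP10K at CT22. The high batches thus ran from CT22 to CT06, and 0 members had all batches of 2 and 6 h above the rest in these wells (0.398% of genes tested did in DD and 0.397% in LD). The difference between 4 and 16 h was 3.10 ± 0.52 in DD, with a peak at 1.80 h (adjusted p = 0.0073), and 2.98 ± 0.59 in LD, with a peak at 2.11 h (adjusted p = 0.0192; log2, SE, n = 13 batches each). Without ZT02 batch 1 or ZT02 batch 2 the LD value had an adjusted p of 0.0559 and 0.0534. The LD call was also lost with the label numbers as a replicate block. In the kept wells of neither kind the gene had 1.20 to 3.53 TP10K in DD and 1.12 to 11.8 TP10K in LD, where its mean over wells was 5.73 TP10K at ZT06 and 1.27 TP10K at ZT14 and met the limits of the members' rule.

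*CG43729* ran the other way in these cells. Its AstC/VGlut levels were 6.84 and 2.55 TP10K at CT02, 6.23 and 7.37 TP10K at CT06, 18.7, 20.7 and 14.9 TP10K at CT10, 19.4 and 15.3 TP10K at CT14, 11.1 and 9.15 TP10K at CT18 and 8.76 and 5.51 TP10K at CT22. The 5 batches of CT10 and CT14 were the highest, whereas in PDF wells of the same batches the gene was highest at CT02 and CT06. In LD the AstC/VGlut wells had 4.74 and 10.1 TP10K at ZT02, 5.23 and 6.98 TP10K at ZT06, 19.1, 11.7 and 23.4 TP10K at ZT10 and 16.0 and 24.7 TP10K at ZT14. The fitted peak lay at 13.2 h in DD (adjusted p = 0.0603) and at 13.1 h in LD (adjusted p = 0.211), neither past the threshold. The difference between the cell classes was tested in a joint fit of the DD batches with batch as a block and an interaction of class with the 24 h terms. The morning difference was 3.66 ± 0.35 larger in PDF than in AstC/VGlut wells (log2, SE, n = 13 batches; edgeR adjusted p = 4.03e-06), and the adjusted p stayed at or below 3.46e-05 without any single batch. In the kept wells of neither kind *CG43729* had 3.70 to 12.2 TP10K in DD.

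The same test called *CG11221*, so 2 of 17 members differed in rhythm between the classes (1.65% of 2790 genes did). *CG11221* had 0.765 and 0.134 TP10K at CT02 and 0.205 and 1.10 TP10K at CT06 in AstC/VGlut wells, and its highest value there was 1.48 TP10K, at CT22. The difference in morning change was 4.74 ± 0.93 (log2, adjusted p = 0.0174). It lost its call without CT06 batch 1, CT14 batch 1 or CT18 batch 1 (adjusted p of 0.0785, 0.0536 and 0.0817), with 218 UMIs behind the AstC/VGlut values. *CG43902*, called in both classes, had a difference of 0.40 ± 0.48 between them in morning change, and the joint test of both 24 h terms did not pass the threshold (adjusted p = 0.375, unadjusted p = 0.0307).

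**Figure D2:**
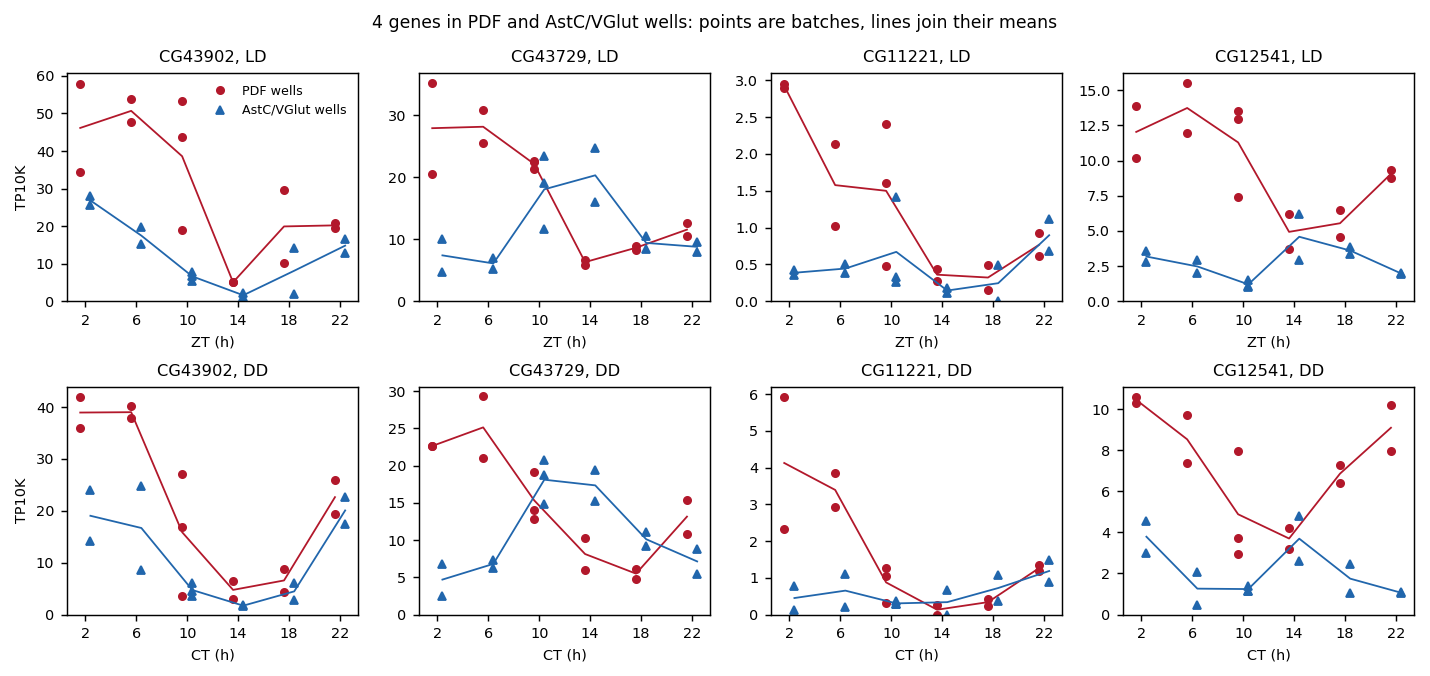
*CG43902*, *CG43729*, *CG11221* and *CG12541* in PDF wells (red circles) and AstC/VGlut wells (blue triangles), in LD above and DD below. The vertical axis is TP10K and the horizontal axis ZT or CT (h), points are batches with at least 3 wells of that kind, and lines join their means. *CG43729* is high at 2 and 6 h in PDF wells and at 10 and 14 h in AstC/VGlut wells.

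The level of each gene was then compared between the classes over the 13 DD batches with batch as a block. 3 of 17 members were called higher in PDF wells, against 8.32% of 2790 genes, and 1 lower, against 8.67%. The median of the members was 0.54 and that of all genes tested -0.00 (log2). Members had to reach 3 TP10K in PDF wells in LD, and no limit was set in AstC/VGlut wells. All genes tested are therefore not a like reference here. Of the 47 genes with other names under the same rule that were tested, 15 were called higher and 10 lower. Of the 63 CG genes tested that peaked later, 9 were called higher and 3 lower. *CG12541*, on X from 7021608 to 7066052, had the largest difference of the 17, 1.83 ± 0.24 (adjusted p = 8.47e-06), with 2.95 to 10.6 TP10K (all times) in PDF wells and 0.470 to 4.80 TP10K in AstC/VGlut wells. In kept wells of neither kind it had 1.09 to 2.72 TP10K, and PDF wells were at a median of 5.02 times the level of those wells of the same batch, with 0.1 TP10K added. *CG43902* was higher by 0.98 ± 0.19 (adjusted p = 0.000834) and *CG13594* by 0.95 ± 0.26 (adjusted p = 0.0120). *CG13594*, on 2R from 24615423 to 24638588, had 0.628 to 4.43 TP10K in PDF wells and 0.233 to 1.96 TP10K in AstC/VGlut wells, and PDF wells were the lower in the 2 batches of CT14, with 0.838 and 0.628 TP10K against 1.32 and 1.96 TP10K. *CG34384*, on 3R from 7814361 to 7855392, was lower in PDF wells by -0.76 ± 0.20 (adjusted p = 0.0097), with 2.40 to 9.17 TP10K there and 4.53 to 14.7 TP10K in AstC/VGlut wells. *CG10960* (0.69 ± 0.24, adjusted p = 0.0520), *CG42260* (0.56 ± 0.20, adjusted p = 0.0533) and *CG7337* (0.68 ± 0.25, adjusted p = 0.0604) lay just outside the threshold. With library size in place of TMM these 3 passed, for 6 members in all.

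Several members took the level of their batch in every kind of well. *CG14408*, on X from 14826867 to 14832033, had 11.8 and 1.35 TP10K in the PDF wells of the 2 batches of ZT06, and 29.0 and 2.05 TP10K in those of ZT14. The AstC/VGlut wells of the same batches had 9.03 and 1.01 TP10K at ZT06 and 27.3 and 2.76 TP10K at ZT14. Kept wells of neither kind had 10.5 and 1.66 TP10K at ZT06 and 27.9 and 2.67 TP10K at ZT14, and wells with fewer than 1000 genes, whose median was 958 UMIs, had 6.19 and 1.17 TP10K at ZT06 and 27.1 and 1.28 TP10K at ZT14. A batch that was high for the gene was therefore high in all 4 kinds of well.

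*CG14301*, on 3R from 18629151 to 18641457, had 10.2 and 0 TP10K in the PDF wells of the 2 ZT06 batches, 9.49 and 0.0252 TP10K in AstC/VGlut wells, 9.33 and 0.0238 TP10K in kept wells of neither kind and 7.23 and 0 TP10K in wells under 1000 genes. At least 1 UMI was found in 21 of 21 PDF wells, 21 of 21 AstC/VGlut wells and 198 of 198 kept wells of neither kind in the first batch, and in 1 of 20 AstC/VGlut wells and 5 of 117 wells of neither kind in the second. All 4 libraries of the first batch (6.57 to 11.9 TP10K over kept wells) lay above both of the second (0.0141 and 0.0262 TP10K). The gene lies inside *qin*, which is read from the opposite strand and had 30.4 and 1.82 TP10K in the same PDF wells. Whether the counting used strand is not given in the sources used here, so reads of *CG14301* and *qin* may not be fully told apart. *CG14299* (*Epg5*) had 7.52 and 0.180 TP10K at ZT06 and 17.7 and 0.821 TP10K at ZT14, and *CG13300* had 6.17 and 0.382 TP10K at ZT06 and 4.32 and 2.48 TP10K at ZT18. Libraries of a batch also differed for these genes. Over kept wells *CG13300* ran from 0.767 to 16.9 TP10K in the libraries of ZT06 batch 1. In those of ZT18 batch 2 it ran from 0.485 to 8.68 TP10K, against 4.42 TP10K in batch 1, and *CG14299* ran from 0.484 to 5.24 TP10K. Among these 4 genes batch 1 was the higher of the pair at ZT06, ZT14 and ZT18 in every case, and it was also so in AstC/VGlut wells. Batches are numbered within a time point: batch 1 has 1 label number at ZT06, ZT10 and ZT18 and another at ZT14. At ZT10 batch 1 had 1.57 TP10K of *CG14408* and 0.845 TP10K of *CG14301* in PDF wells. ZT22 batch 2, with the label number of ZT06 batch 1, had 19.8, 21.8, 6.89 and 15.6 TP10K of *CG14408*, *CG14301*, *CG14299* and *CG13300* over kept wells.

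*CG10252*, on 3R from 23695221 to 23696245, was a member through 1 library. In library 4 of ZT02 it had 38.5 TP10K in PDF wells, 25.5 TP10K in AstC/VGlut wells, 25.4 TP10K in kept wells of neither kind and 35.3 TP10K in wells under 1000 genes, and at least 1 UMI in 5 of 5 PDF wells, 7 of 7 AstC/VGlut wells and 58 of 58 wells of neither kind. Over kept wells this library had 26.3 TP10K, and the highest of the 83 others had 0.664 TP10K. In the 3 further libraries of the same batch PDF wells had 0 UMIs of the gene. Without that library 17 of the 18 genes were still taken by the rule, and *CG1504* took the place of *CG10252*.

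The levels of PDF and AstC/VGlut wells in the 13 LD batches correlated at Pearson's r of 0.982 for *CG14301*, 0.978 for *CG14408*, 0.968 for *CG14299*, 0.972 for *CG10252* and 0.919 for *CG13300* (log2 of TP10K plus 0.1), as a description of points that share libraries. The value for *CG10252* rests on 1 batch (Spearman's rho 0.494). High r was not limited to these genes: it was 0.829 for *CG43902* and 0.823 for *CG10960*, while it was -0.314 for *CG43729* and -0.394 for *CG12541*. In DD, with other libraries, r was 0.910 for *CG14301*, 0.896 for *CG14408*, 0.837 for *CG14299*, 0.755 for *CG10252*, 0.362 for *CG13300* and -0.391 for *CG43729*. The DD value for *CG10252* rests mainly on CT10 batch 2 (Spearman's rho 0.477). That batch held 8 of its 14 UMIs in PDF wells and 9 of 12 in AstC/VGlut wells. A gap of at least 4-fold between batches of a time point, present in PDF and in AstC/VGlut wells of LD, was found for 7 of the 18 members (38.9%), against 15 of the 52 genes with other names (28.8%) and 154 of the 783 genes that reached 3 TP10K (19.7%). The 7 were the 5 genes named here with *CG14989* and *CG11221*. These shares use the values that chose the members and are a description. In DD 4 of the 5 genes named here had enough counts and did not pass the test of level between PDF and AstC/VGlut wells. The differences were 0.10 ± 0.12 for *CG14301*, -0.03 ± 0.13 for *CG14408*, -0.00 ± 0.09 for *CG14299* and 0.73 ± 0.37 for *CG13300* (adjusted p of 0.680, 0.925, 0.998 and 0.210). The glial markers over all kept wells summed to 0.656 TP10K in batch 1 and 9.42 TP10K in batch 2 of ZT06, to 8.16 and 0.362 TP10K at ZT14 and to 1.72 and 0.257 TP10K at ZT18. They were thus higher in batch 1 at ZT14 and ZT18, like these genes, and lower at ZT06, and their part in these values was not tested.

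**Figure D3:**
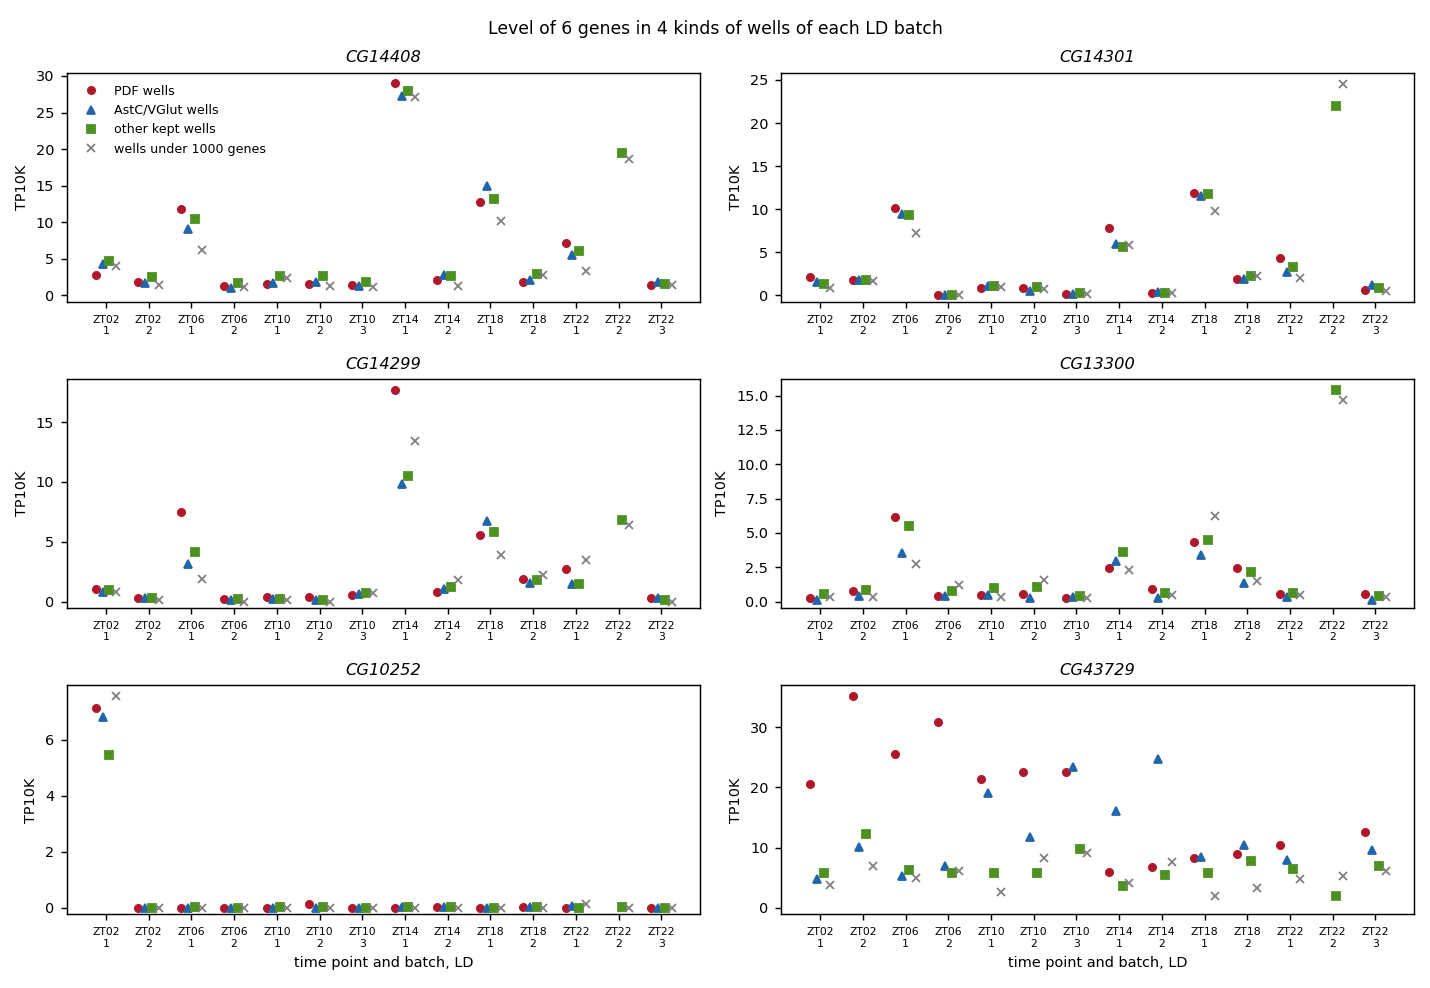
TP10K of 6 genes in each LD batch (horizontal axis, time point and batch) for PDF wells, AstC/VGlut wells, other kept wells and wells under 1000 genes, with at least 3 wells each. For *CG14408*, *CG14301*, *CG14299*, *CG13300* and *CG10252* the 4 symbols of a batch move together, with *CG10252* at 7.13 TP10K in PDF wells of ZT02 batch 1; for *CG43729* PDF and AstC/VGlut wells separate.

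*CG14989* resembled these genes in PDF and AstC/VGlut wells (r of 0.842 in LD and 0.920 in DD) but was far higher in the rest. Its median over batches was 1.65 TP10K in PDF wells, 1.23 TP10K in AstC/VGlut wells and 11.2 TP10K in kept wells of neither kind in DD. Its first part overlaps that of *Gad1*, the gene of the enzyme that makes GABA, on the opposite strand, and *Gad1* had medians of 1.15, 0.784 and 5.59 TP10K in these wells. Apart from *CG14989* and *CG14301*, 9 further members overlap an annotated gene, 3 of them on their own strand (*CG13594*, *CG42750* and *CG43729*). An overlap is thus present for 11 of 18, but the levels of the overlapping genes differ. Besides *qin*, *Gad1* and *CR44894*, those with a level had at most 0.474 TP10K in kept wells (*CG13526*, PDF wells in DD). No level is given for the genes on the same strand. The 4 remaining members, *CG6123*, *CG7337*, *CG30116* and *CG42750*, had 1.17 to 4.07, 0.449 to 3.08, 1.09 to 3.56 and 1.51 to 3.35 TP10K in PDF wells in DD, and adjusted p for rhythm of 0.552, 0.445, 0.589 and 0.956. *CG42750* and *CG30116* were highest at ZT02 or ZT06 in LD PDF wells by selection, and in AstC/VGlut wells in DD their difference between 4 and 16 h was 0.87 ± 0.35 and 1.46 ± 0.55 (adjusted p = 0.264 and 0.304).

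The list itself depended on single batches. When each LD batch was left out in turn, 7 of the 18 genes met the rule in all 14 runs: *CG10960*, *CG11221*, *CG13594*, *CG34384*, *CG42260*, *CG43729* and *CG43902*. The 3 genes called in DD PDF wells were among these 7. Without ZT06 batch 2 the rule took 35 genes, 17 of them members. In that batch the 5 fat body markers found summed to 6.95 TP10K over all kept wells, against 0.110 TP10K in ZT06 batch 1. ZT22 batch 3 had 8.73 TP10K of them, and without it the rule took 17 genes. The part of these markers in the members' values was not tested.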

How the data were processed

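The deposited values are UMI counts per gene and well, without normalization, which the authors obtained by mapping to dm6 (zUMIs, STAR) and counting exon alignments. The submitters' notes name bcl2fastq 2.20. The annotation release is not given in the sources used here. Genes absent from a table were set to 0, and spike-ins and EGFP were left out. Counts gave TP10K per well and were summed per batch and kind of well, with at least 3 wells. Coordinates are those of the Ensembl annotation for dm6 and names those of RefSeq, with all 18 members matched. Sequences were not used here, so the planned search for promoter motifs was not run.

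Rhythms and levels were tested on summed counts with edgeR 4.0.16 (R 4.3.3, quasi-likelihood, TMM, filterByExpr, Benjamini-Hochberg over all genes). Standard errors are the estimate over the square root of F. The scripts were tested on simulated data. No doublet caller was run. Members, lists and tests were chosen with earlier results of these data known, and the test of rhythm between kinds of well was added after seeing the data. Named were the members called in each comparison, the 8 with the highest LD means, those at the limits, and neighbours, with clock genes as background. Other members were named after their values were seen.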

Additional observations from a re-analysis of the deposited data

Results flagged for a closer look

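*CG43729* and *CG11221* differed in rhythm between PDF and AstC/VGlut wells in DD by the joint fit of both kinds of well. The morning difference (fit at 4 h minus fit at 16 h, PDF minus AstC/VGlut wells, log2) was larger in PDF wells by 3.66 for *CG43729* and by 4.74 for *CG11221* (edgeR adjusted p = 4.03e-06 and 0.0174).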

How the results depend on the processing

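The calls of members were repeated under alternatives, which gave 235 values, each of 1 called member under 1 setting. Of these 235 kept the direction and 224 the call. The 11 lost calls are those given in the text and 1 under the replicate block. Leaving out AstC/VGlut wells over the *Pdf* limit could not change a value, since 0 wells were in both kinds. With batch numbers of the labels as a replicate block *CG43902* was not called in AstC/VGlut wells in LD (0 members, adjusted p = 0.0610), and the count stayed at 3 in PDF wells in DD and at 1 in AstC/VGlut wells in DD. Batches of the same number deviated together (correlation over 0.1) in 1 of 4 pairs of PDF wells in DD, 4 of 11 of AstC/VGlut wells in LD and 3 of 4 in DD. Batches of different numbers did so in 7 of 66, 18 of 59 and 11 of 66 pairs. Pairs of the same number are too few to settle whether the numbers pair the batches. Without the block on batch, levels gave 3 members higher and 1 lower.

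DESeq2 called 5 members in PDF wells in DD (with *CG12541* and *CG13594*), 2 in AstC/VGlut wells in LD (with *CG42750*) and 6 as higher in PDF wells, as did library size in place of TMM (6). With no filter on low counts 2 were called in AstC/VGlut wells in LD (with *CG10252*), 5 as higher in PDF wells and 4 as different in rhythm (with *CG34384* and *CG43902*). Leaving out 1 batch at a time gave 15 to 35 members, 2 to 4 calls in PDF wells in DD, 0 to 2 in AstC/VGlut wells in LD (2 without ZT14 batch 1), 3 to 5 higher in PDF wells (5 without CT14 batch 2, CT18 batch 2 or CT22 batch 1), 1 to 2 lower (2 without CT22 batch 1 or batch 2) and 1 to 3 different in rhythm. A *Pdf* limit of 50 TP10K took 24 members, 12 of them among the 18, and the mean over batches 15, with 11 among the 18.

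Over all genes, morning peaks numbered 28 in PDF wells in DD, 56 by DESeq2, 331 with no filter and 16 with time as a factor or with the entropy limit, and 9 to 29 with a batch left out. In AstC/VGlut wells in LD they numbered 34, 79 by DESeq2, 90 with no filter, 18 with time as a factor, 9 with the block and 12 to 32 with a batch left out, and in DD 16, 41 by DESeq2, 316 with no filter and 10 with the block. Rhythm differed for 46 genes, 88 by DESeq2, 109 with no filter and 23 to 53 with a batch left out. Library size in place of TMM moved the median of all genes to -0.12 in AstC/VGlut wells in LD, against -0.02. The cause of these changes was not tested. Depth limits the rarest members: *CG10252* had 14 UMIs in PDF wells in DD and was not tested there.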
